A study of Mus musculus with 6 samples.

Results

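The miR-199 and miR-214 family was examined in small RNA sequencing of mouse livers. Its members were chosen by name, as the rows of the deposited CPM values (the reads of a miRNA scaled so that the miRNA reads of every library have the same total) for mmu-miR-199a-5p, mmu-miR-199a-3p, mmu-miR-199b-5p, mmu-miR-199b-3p, mmu-miR-214-3p and mmu-miR-214-5p. All 6 names were listed among 1546 mature miRNAs, and all 6 passed the minimum mean of 1 CPM that left 501 miRNAs for testing. They hold 5 distinct sets of reads, since miR-199a-3p and miR-199b-3p had the same count in every library. The livers came from C57BL/6 mice, male and 8 weeks old at the start according to the methods of the study. A normal diet was given to the NC group and a high-fat diet to the MAFLD group (metabolic dysfunction-associated fatty liver disease) for 16 weeks, with 6 mice per diet. Sequenced were 3 NC and 3 MAFLD livers, with 1 library each, and no transgene or drug is described for either group. The model rests on diet alone, and no fibrosis grade of these livers is given in the sources used here.

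Stellate cells lie beside the sinusoids of the liver, store vitamin A when quiescent and lay down collagen when activated. The long non-coding RNA Dnm3os carries the hairpins of miR-199a and miR-214, and these miRNAs are known from mesenchymal cells, including stellate cells and fibroblasts. A hairpin is cut into a 5p and a 3p arm. The arm that is loaded into Argonaute finds its targets through the seed, bases 2 to 8. MiR-199a-5p is known to target caveolin-1, and miR-214-3p has been described as a regulator of connective tissue growth factor in stellate cells.

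The sequences show which reads the names can share. They come from RefSeq on GRCm38.p6, where 5 of the 6 members had a mature entry, and each is written 5′ to 3′ with its seed in capitals.

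miR-199a-5p: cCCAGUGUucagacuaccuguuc

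miR-199a-3p and miR-199b-3p: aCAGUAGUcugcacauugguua

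miR-214-3p: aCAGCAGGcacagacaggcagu

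miR-214-5p: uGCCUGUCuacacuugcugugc

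The 3p arms of miR-199a and miR-199b are the same molecule by sequence, so their counts cannot be divided between genes and were read here as 1 miRNA, called miR-199-3p. The seeds of miR-199a-5p, miR-199-3p and miR-214-5p were found in no other listed miRNA among those with a mature entry, which were 1312 of the 1546, and miR-199b-5p was not among them. The seed of miR-214-3p was shared with mmu-miR-761, which stood between 0 and 2.24 CPM in the 6 livers.

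Hairpins of 4 genes give rise to the members, and they are printed with the annotated mature arms in capitals because their positions decide which members come from 1 transcript.

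Mir199a-2: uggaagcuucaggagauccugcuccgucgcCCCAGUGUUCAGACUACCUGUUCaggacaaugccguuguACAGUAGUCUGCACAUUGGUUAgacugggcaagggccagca

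Mir214: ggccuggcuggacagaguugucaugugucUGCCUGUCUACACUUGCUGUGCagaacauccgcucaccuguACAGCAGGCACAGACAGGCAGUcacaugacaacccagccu

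Mir199a-1: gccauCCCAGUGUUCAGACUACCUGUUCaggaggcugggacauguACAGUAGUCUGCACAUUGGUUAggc

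Mir199b: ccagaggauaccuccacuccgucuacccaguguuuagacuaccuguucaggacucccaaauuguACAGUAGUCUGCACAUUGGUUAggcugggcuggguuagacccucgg

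Mir199a-2 (ENSMUSG00000070126.1) lies on the plus strand at chr1:162217814-162217923 of GRCm38, and Mir214 (ENSMUSG00000065516.1) at chr1:162223368-162223477, with 5444 bases between them. Both overlap an exon of Dnm3os on the same strand and an intron of Dnm3, the gene of the membrane-fission GTPase dynamin 3, on the opposite strand. Mir199a-1 (ENSMUSG00000065547.1) lies on the minus strand at chr9:21496495-21496564, in an intron of Dnm2 on the opposite strand. Mir199b (ENSMUSG00000092807.1) lies on the plus strand at chr2:32318460-32318569, in an intron of Dnm1 on the opposite strand. MiR-199a-5p and miR-199-3p can therefore come from several genes, while both arms of miR-214 come from Mir214 alone. Within the Mir199b hairpin, the stretch most like miR-199a-5p matched it at 22 of 23 bases, and the difference is C10U, counted from the 5′ end of miR-199a-5p. It lies outside the seed, so this stretch holds the seed of miR-199a-5p. How many mismatches the authors allowed when reads were assigned is not given in the sources used here, and exchange of reads between miR-199a-5p and miR-199b-5p was not tested.

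Depth lay between 1336935 and 4685712 miRNA reads per library, and 3 reads, the lowest level read as signal here, were worth 0.640 to 2.24 CPM. The hepatocyte markers miR-122-5p and miR-192-5p were abundant in all 6 livers, at 42159 to 85150 and 58194 to 97878 CPM. NC replicates 1 and 2 stood apart from the other 4 libraries. The brain-typical miR-9-5p was at 344 and 530 CPM there and at 4.48 to 12.4 CPM elsewhere, and miR-148a-3p took 71.4% and 63.3% of the reads against 46.8% to 56.7%. In bulk liver, fewer cells of a type and less RNA per cell cannot be told apart.

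MiR-199-3p was the most abundant member in all 6 livers. It was at 269.8 CPM in NC replicate 1, 363 CPM in NC replicate 2 and 689 CPM in NC replicate 3. In MAFLD replicates 1, 2 and 3 it was at 889.9, 614 and 755 CPM. The first 2 NC livers were below every MAFLD liver, and NC replicate 3 stood inside the MAFLD range, so the groups overlapped. Means over the livers were 440.4 ± 220.1 CPM (SD, n = 3) for NC and 753 ± 138 CPM (SD, n = 3) for MAFLD. The log2 fold change of CPM + 1 was 0.87 (standard error 0.38, 95% confidence interval 0.050 to 1.69), with an adjusted p of 0.247 from limma.

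MiR-199a-5p, the other arm of the miR-199a hairpins, was at 115, 168 and 349 CPM in NC replicates 1, 2 and 3. It was at 402, 277 and 332 CPM in MAFLD replicates 1, 2 and 3. The same 2 NC livers were low, and NC replicate 3 was above 2 of the 3 MAFLD livers. The means were 211 ± 122 CPM (SD, n = 3) and 337 ± 62.6 CPM (SD, n = 3). The log2 fold change was 0.81 (standard error 0.42, 95% confidence interval −0.086 to 1.71, adjusted p = 0.307 from limma).

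MiR-199b-5p, the member that only Mir199b encodes, rested on few reads. NC replicates 1 and 2 held 7 and 9 reads, which is 2.75 CPM (95% Wilson interval 1.33 to 5.67) and 5.73 CPM (3.02 to 10.9). NC replicate 3 held 44 reads, which is 32.9 CPM (24.5 to 44.2). The interval of NC replicate 3 did not overlap with those of NC replicates 1 and 2. The MAFLD livers held 103, 76 and 49 reads, which is 38.6, 16.2 and 31.9 CPM. Of these values, 2 were below that of NC replicate 3. The log2 fold change was 1.57 (standard error 0.68, 95% confidence interval 0.12 to 3.03, adjusted p = 0.247 from limma).

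MiR-214-3p, the 3p arm of Mir214, was at 11.0, 14.0 and 50.1 CPM in NC replicates 1, 2 and 3. It was at 63.8, 46.5 and 43.0 CPM in MAFLD replicates 1, 2 and 3. NC replicate 3 again stood above 2 of the 3 MAFLD livers. The means were 25.0 ± 21.8 CPM (SD, n = 3) and 51.1 ± 11.1 CPM (SD, n = 3). The log2 fold change was 1.29 (standard error 0.54, 95% confidence interval 0.15 to 2.44, adjusted p = 0.223 from limma).

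MiR-214-5p, the opposite arm of the same hairpin, did not show this arrangement. It was at 11.0, 7.65 and 15.7 CPM in NC and at 12.4, 10.2 and 10.4 CPM in MAFLD replicates 1, 2 and 3. The MAFLD livers lay between the lowest and the highest NC liver. Its log2 fold change was −0.0033 (standard error 0.48, 95% confidence interval −1.03 to 1.02, adjusted p = 0.997 from limma), an interval that reaches changes as large as those of miR-199-3p. The libraries held 12 to 48 reads of it.

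**Figure D1:**
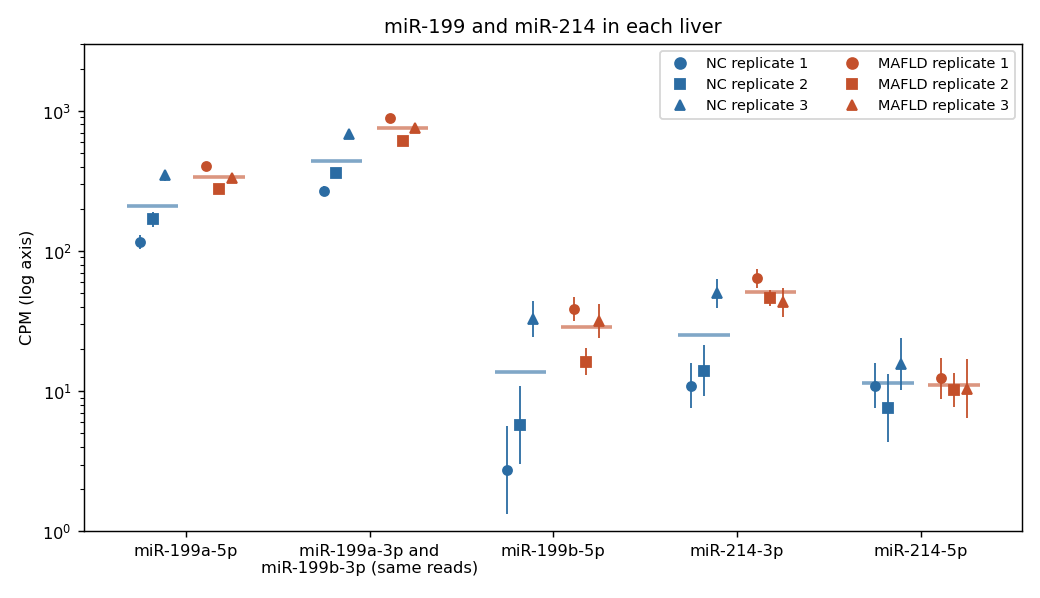
CPM on a log axis for the members in each of the 3 NC (blue) and 3 MAFLD (red) livers. Points are livers with 95% Wilson intervals for counting error, and bars are group means. NC replicates 1 and 2 sit below the MAFLD livers for all members but miR-214-5p, and for the same members NC replicate 3 sits among the MAFLD livers. For miR-214-5p NC replicate 3 is the highest, at 15.7 CPM.

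In order of level, miR-199-3p and miR-199a-5p came first and second in every liver. MiR-214-3p came next, ahead of miR-199b-5p in all 6. MiR-214-5p was the lowest of the 5 in every MAFLD liver and in NC replicate 3. In NC replicates 1 and 2 miR-199b-5p was the lowest, and in NC replicate 1 both arms of miR-214 had the same 28 reads. Counting miR-199-3p once, the members summed to 409.9, 558 and 1136 CPM in NC replicates 1, 2 and 3 and to 1407, 964 and 1172 CPM in MAFLD replicates 1, 2 and 3. Ranked by CPM among all names, miR-199-3p was between position 41 and 53 in the 6 livers, and miR-199a-5p between 58 and 76.

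None of the 5 distinct members had an adjusted p under 0.05 with all 6 livers, where 1 of the 501 tested miRNAs did (0.200%). Without adjustment, p was under 0.05 with a higher level in MAFLD livers for 3 of the 5 (miR-199-3p at 0.0390, miR-199b-5p at 0.0358 and miR-214-3p at 0.0290 from limma), and 67 of the 501 miRNAs were higher by this rule (13.4%). None of the 5 was lower, against 23 of the 501 (4.59%). With edgeR on the recovered reads, 0 of the 5 had an adjusted or an unadjusted p under 0.05, where 1 of the 501 passed the adjusted p (0.200%) and 37 were higher at the unadjusted p (7.39%). With DESeq2, 0 of the 5 passed either, where 32 of the 501 passed the adjusted p in either direction (6.39%), 9 higher and 23 lower. At the unadjusted p, 29 of the 501 were higher with DESeq2 (5.79%). For none of the 5 did every MAFLD liver exceed every NC liver, while this held for 76 of the 501 (15.2%). NC replicate 3 lay within the MAFLD range for the members other than miR-214-5p, and for 258 of the 501 (51.5%). A two-sided exact permutation test over the 6 livers gave p = 0.2 for miR-199-3p, p = 0.3 for miR-199a-5p, miR-199b-5p and miR-214-3p and p = 1 for miR-214-5p, where 3 livers against 3 cannot go below 0.1. The members share hairpins and transcripts, so their counts are not independent.

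The calls depended on NC replicate 3. Without NC replicate 3, 4 of the 5 members were higher in MAFLD livers at an adjusted p under 0.05 from limma, and 95 of the 501 miRNAs were (19.0%). The log2 fold changes were then 1.94 for miR-214-3p (adjusted p = 0.00609), 2.49 for miR-199b-5p (0.00609), 1.25 for miR-199-3p (0.00707) and 1.25 for miR-199a-5p (0.0119). MiR-214-5p had a log2 fold change of 0.24 and an adjusted p of 0.742 in that fit. When NC replicate 3 was the only NC liver, the values were 0.0069 for miR-214-3p, −0.26 for miR-199b-5p, 0.11 for miR-199-3p and −0.065 for miR-199a-5p. That fit takes the lone NC liver to vary like the MAFLD livers, and it left 0 of the 5 past either threshold, where 0 of the 501 passed the adjusted p and 14 were higher at the unadjusted p (2.79%), with an adjusted p of 0.943 for miR-214-5p and 0.999 for each of the others from limma. Leaving out any library other than NC replicate 3 also left 0 of the 5 past the adjusted p, and 0 to 3 of the 501.

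**Figure D2:**
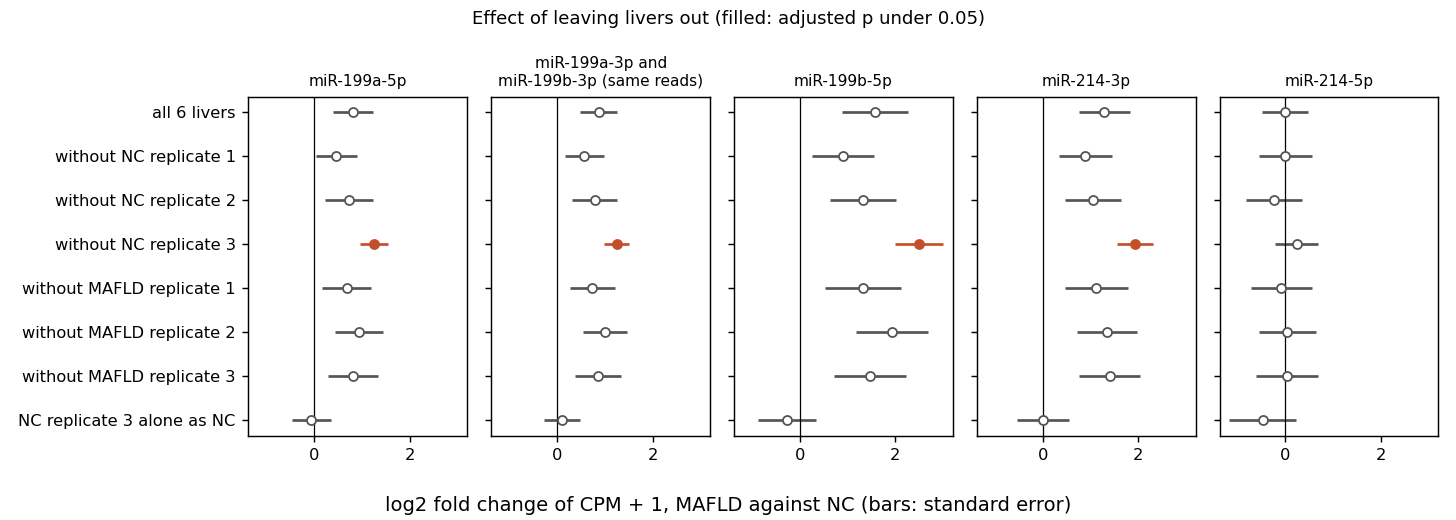
Log2 fold change of CPM + 1, MAFLD against NC, for each member with all 6 livers, with each liver left out, and with NC replicate 3 as the only NC liver. Bars are standard errors and filled points have an adjusted p under 0.05. Only the fits without NC replicate 3 hold filled points, at 1.25 to 2.49 for 4 members.

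Brain miRNAs and miR-148a-3p were highest, and endothelial miRNAs lowest, in NC replicates 1 and 2, where the members other than miR-214-5p were lowest. The sum of 4 brain miRNAs was 362 and 568 CPM in these livers and 4.91 to 15.0 CPM in the other 4, where miR-124-3p, a defining neuronal miRNA, was at 0 in 3 libraries and at 0.652 CPM in MAFLD replicate 3. MiR-122-5p, miR-122-3p, miR-192-5p and miR-194-5p, which mark hepatocytes, were likewise lowest in NC replicates 1 and 2. MiR-148a-3p, counted here as a hepatocyte miRNA too, went the other way. How many of all tested miRNAs were lowest in NC replicates 1 and 2 was not counted. Of miR-122-5p, NC replicate 1 held 42159 CPM and NC replicate 2 held 54430 CPM, with 55196 to 85150 CPM elsewhere. Of miR-194-5p, NC replicate 1 held 2218 CPM and NC replicate 2 held 2519 CPM, with 4345 to 7706 CPM elsewhere. The endothelial miR-126a arms summed to 4718, 4709.5 and 6587 CPM in NC and to 10155, 8042 and 7659 CPM in MAFLD replicates 1, 2 and 3. The 4 arms of miR-143 and miR-145a, typical of smooth muscle and pericytes, summed to 12259, 23318 and 29068 CPM in NC and to 18927, 18902 and 25925 CPM in MAFLD replicates 1, 2 and 3, so that NC replicate 2 was above 2 MAFLD livers. The 5 leukocyte miRNAs summed to 135, 205 and 247 CPM in NC and to 353, 189.9 and 325 CPM in MAFLD replicates 1, 2 and 3, with NC replicate 2 above MAFLD replicate 2. By their sums, neither of these 2 lists, nor the endothelial list, ordered the livers as the members' sum did. Single miRNAs could differ from the sum of their list. The leukocyte miR-155-5p had the order of the members' sum, while the other leukocyte miRNAs did not. It was at 2.35, 5.73 and 15.7 CPM in NC and at 39.8, 10.7 and 18.2 CPM in MAFLD replicates 1, 2 and 3. MiR-155-5p, miR-223-3p and miR-145a-3p were lowest in NC replicates 1 and 2, unlike the other miRNAs of these 2 lists. The endothelial sum was higher in every MAFLD liver than in every NC liver, which did not hold for the members' sum. With miR-148a-3p left out of the total, log2 fold changes were 1.35 for miR-199b-5p, 0.99 for miR-214-3p, 0.52 for miR-199-3p and 0.47 for miR-199a-5p. MiR-214-5p was then at −0.34, the median of the 500 miRNAs was 0.16, and adjusted p from limma ran from 0.206 to 0.704 over the members. That setting compared groups rather than single livers. The part of brain RNA and of other cell types in the low member values of NC replicates 1 and 2 was not tested.

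**Figure D3:**
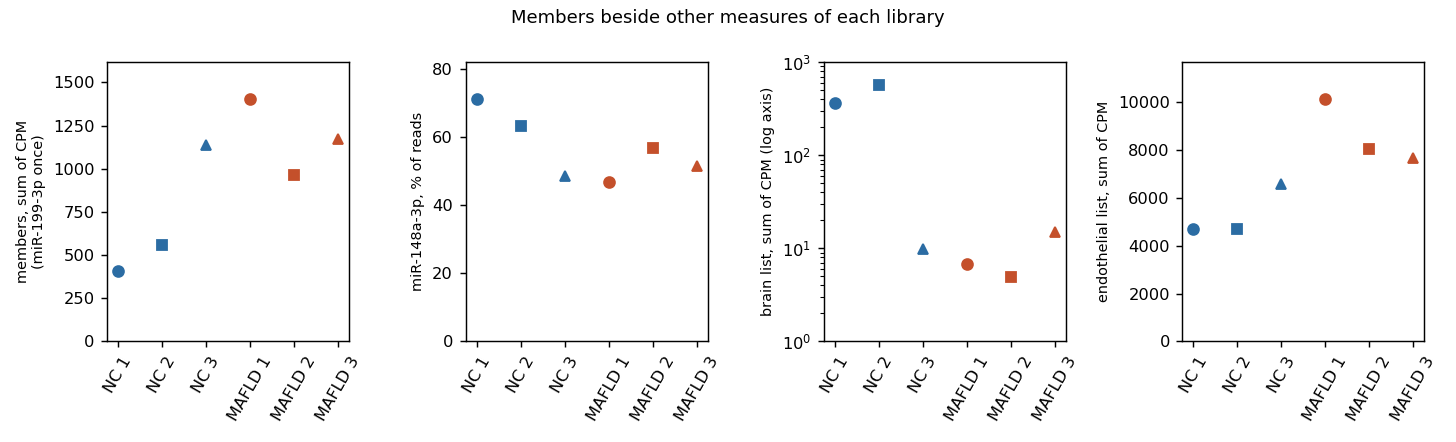
The sum of the members in CPM, the share of reads on miR-148a-3p in percent, the sum of the brain list in CPM (log axis) and the sum of the endothelial list in CPM, for each library. NC replicates 1 and 2 have the lowest member sums (409.9 and 558 CPM), the highest miR-148a-3p shares (71.4% and 63.3%) and the highest brain sums.

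The scaling of the libraries moved all members by a similar amount. Over the 501 miRNAs, log2 fold changes had a median of 0.43 on the CPM scale and 0.044 after median-ratio scaling, and 71.3% of the 501 were above 0 on the CPM scale. With median-ratio scaling the log2 fold changes were 1.17 for miR-199b-5p, 0.85 for miR-214-3p, 0.40 for miR-199-3p and 0.35 for miR-199a-5p. MiR-214-5p was then at −0.43, and adjusted p from limma ran from 0.288 to 0.612 over the 5. Relative to the median of all tested miRNAs on the CPM scale, the differences were 1.14, 0.86, 0.44, 0.38 and −0.43 in the same order. On the CPM scale, the log2 fold change exceeded that of 97.6% of the tested miRNAs for miR-199b-5p, 94.2% for miR-214-3p, 77.8% for miR-199-3p, 75.6% for miR-199a-5p and 28.5% for miR-214-5p.

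**Figure D4:**
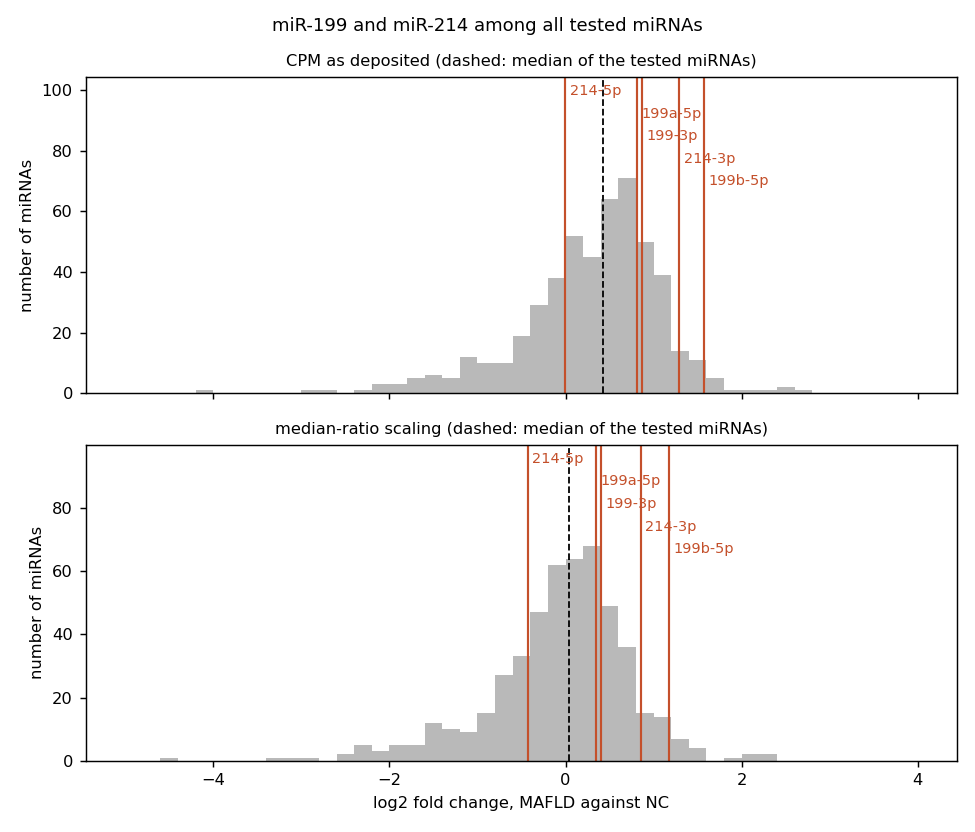
Histograms of the log2 fold change, MAFLD against NC, of the 501 tested miRNAs on the CPM scale (top) and after median-ratio scaling (bottom), with the members as red lines and the median as a dashed line. MiR-199b-5p and miR-214-3p lie in the upper tail on both scales, the miR-199a arms nearer the median, and miR-214-5p below it.

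Shares between members within 1 library do not depend on its total. MiR-199a-5p made up 29.9%, 31.7% and 33.6% of the reads of miR-199a-5p and miR-199-3p together in NC replicates 1, 2 and 3. In MAFLD replicates 1, 2 and 3 it made up 31.1%, 31.1% and 30.6%. MiR-199a-5p and miR-199-3p thus kept nearly the same proportion in all livers, also where both were low. Reads of miR-199-3p can also come from Mir199b, so this is not a ratio of the arms of 1 hairpin. The difference of the mean log2 ratio, with 0.5 reads added, was −0.055 (two-sided exact permutation test, p = 0.7).

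For the arms of miR-214 the shares ranged more widely between livers, with few reads in NC. With 3 livers against 3, the exact test of their difference cannot reach p under 0.05, so it could not decide whether the groups differed. MiR-214-5p made up 50.0% of the reads of both arms in NC replicate 1 (95% Wilson interval 37.3 to 62.7), 35.3% in NC replicate 2 (21.5 to 52.1) and 23.9% in NC replicate 3 (16.2 to 33.7). In MAFLD replicates 1, 2 and 3 it made up 16.3% (11.8 to 22.0), 18.05% (13.9 to 23.1) and 19.5% (12.4 to 29.4). Every NC liver was above every MAFLD liver, NC replicate 3 included, although its interval overlapped with all 3 of the MAFLD livers. The log2 ratio of miR-214-5p to miR-214-3p was −0.83 ± 0.83 (SD, n = 3) in NC and −2.18 ± 0.17 (SD, n = 3) in MAFLD livers. The difference of −1.34 had p = 0.1 in the two-sided exact permutation test, the smallest it can give, and 0.267 after Benjamini-Hochberg adjustment over the 4 ratios.

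MiR-199b-5p made up 2.33%, 3.30% and 8.63% of the reads of the miR-199b-5p and miR-199a-5p pair in NC replicates 1, 2 and 3. It made up 8.77%, 5.54% and 8.77% in MAFLD replicates 1, 2 and 3, so that NC replicate 3 was again inside the MAFLD range. The difference in log2 ratio was 0.89 (two-sided exact permutation test, p = 0.2, adjusted 0.267). MiR-214-3p made up 8.70%, 7.69% and 12.6% of the reads of miR-214-3p and miR-199a-5p, which has a source outside Dnm3os in Mir199a-1, in NC replicates 1, 2 and 3. It made up 13.7%, 14.4% and 11.5% in MAFLD replicates 1, 2 and 3. The difference was 0.52 on the log2 scale (two-sided exact permutation test, p = 0.2, adjusted 0.267), and MAFLD replicate 3 lay below NC replicate 3.

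**Figure D5:**
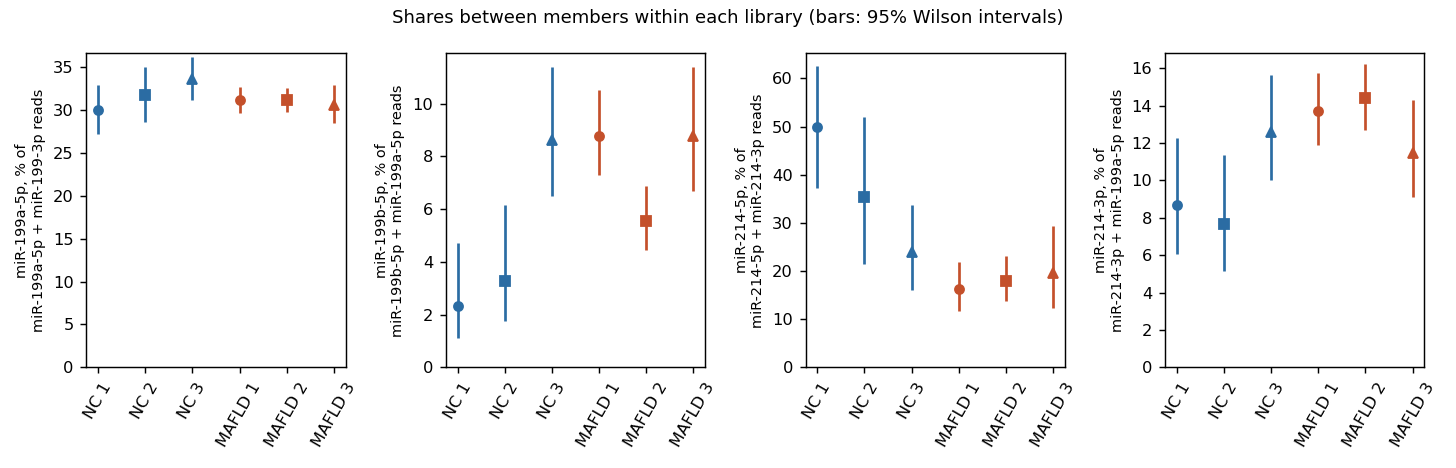
Percent of reads taken by the first named member of each pair in the 6 libraries, with 95% Wilson intervals. The share of miR-199a-5p stays between 29.9% and 33.6%, the share of miR-214-5p is lower in every MAFLD liver than in every NC liver, and the other 2 shares overlap between the groups.

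Across the 6 livers, log2(CPM + 1) of miR-199-3p, miR-199a-5p, miR-199b-5p and miR-214-3p ran together, with Pearson's r between 0.962 and 0.994 for each pair. Against these, r of miR-214-5p was between 0.481 and 0.573. These values describe 6 libraries whose CPM share 1 total each. The tested miRNAs most like miR-199a-5p were miR-30a-5p (r = 0.999), miR-652-3p (0.998) and miR-29c-3p (0.997), and the same 3 came first for miR-199b-5p, with r between 0.995 and 0.996. For miR-199-3p they were miR-652-3p, miR-1839-5p and miR-24-3p, each with r = 0.996. For miR-214-3p they were miR-30b-5p (0.991), miR-125a-5p (0.988) and miR-29b-3p (0.987). For miR-214-5p they were miR-200b-5p (0.992), miR-291b-3p (0.965) and miR-1964-3p (0.965), whose means of 1.42 to 4.37 CPM rest on few reads.

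Other miRNAs linked to fibrosis gave the following counts. Of 9 miRNAs linked to activated stellate cells, 7 had a log2 fold change above 0 (71.3% of all tested miRNAs did), 2 were higher at an unadjusted p under 0.05 (13.4% of all tested) and 0 passed the adjusted p, with a median log2 fold change of 0.28 beside 0.43 for all tested miRNAs. The most abundant of them were miR-21a-5p, a miRNA raised in many injured tissues (log2 fold change −0.28, adjusted p = 0.582 from limma), miR-143-3p (0.049, adjusted p = 0.950) and miR-27b-3p (0.75, adjusted p = 0.257). Of 12 miRNAs linked to quiescent stellate cells or to restraint of collagen, all 12 were above 0, 6 were higher at an unadjusted p under 0.05, read beside the same shares of all tested miRNAs, and 0 passed the adjusted p, with a median of 0.93. The most abundant here were miR-122-5p, the main miRNA of hepatocytes (0.14, adjusted p = 0.800 from limma), miR-30a-5p (0.50, adjusted p = 0.331) and miR-101a-3p (0.82, adjusted p = 0.208). The members' own median was 0.87 over the 5 distinct sets of reads, between the medians of these lists.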

How the data were processed

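Small RNA of 3 NC and 3 MAFLD mouse livers was sequenced after treatment that removes RNA modifications. The authors gave 1546 mature miRNAs as deposited CPM, in which each library sums to the same total. The submitters' processing notes name FastQC, cutadapt, Bowtie, edgeR and GRCm38, without versions. All values were within 0.02 of a whole number of reads once divided by what 1 read is worth in their library, so reads were recovered. Because totals are equal, an abundant miRNA lowers the CPM of all others. Groups were compared on log2(CPM + 1) with limma 3.58.1 in R 4.3.3 (eBayes with a trend) over 501 miRNAs, those whose mean reached 1 CPM, with two-sided p-values adjusted by Benjamini-Hochberg over all 501 and a threshold of 0.05. Ratios used reads plus 0.5 and exact permutation tests (scipy 1.17.1). Wilson intervals and the level of 3 reads cover counting error only. Alternatives included edgeR 4.0.16 and DESeq2 1.42.0 on recovered reads. The fit was tested on simulated data in which 200 of 501 miRNAs were changed. There limma called 62 miRNAs at the adjusted p, and 58 of these were changed ones, 29.0% of the 200. The members, lists and tests were chosen with earlier results of these data known. Named were all members, the 3 miRNAs most correlated with each, and the 3 most abundant of each fibrosis list. Other miRNAs were named after their values were seen. Positions come from GENCODE M21 on GRCm38. The labels number different livers 1 to 3 in each group. No source says that livers with the same number belong together, and correlations of their deviations were −0.046 to 0.012. The HepG2 experiments were not analysed here.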

Additional observations from a re-analysis of the deposited data

How the results depend on the processing

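Settings were changed 1 at a time. NC replicate 3 as the only NC liver, and median-ratio scaling without that library, were added after the data were seen. Leaving out NC replicate 3 put 4 of 5 members past the adjusted p, and median-ratio scaling without it put 2, miR-199b-5p (log2 fold change 1.87, adjusted p = 0.0149 from limma) and miR-214-3p (1.26, adjusted p = 0.0343), where 5 of the 501 miRNAs were higher and 31 lower. All other settings gave 0 of 5. Adjusted p ranged over the 18 alternatives from 0.00609 to 0.999 for these 2, from 0.00707 to 0.999 for miR-199-3p and from 0.0119 to 0.999 for miR-199a-5p.

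Leaving out 1 library gave log2 fold changes from 0.46 to 1.25 for miR-199a-5p, 0.57 to 1.25 for miR-199-3p, 0.90 to 2.49 for miR-199b-5p, 0.89 to 1.94 for miR-214-3p and −0.24 to 0.24 for miR-214-5p. With NC replicate 3 as the only NC liver, miR-199a-5p turned to −0.065 and miR-199b-5p to −0.26. MiR-214-5p turned to 0.00068 at a pseudocount of 0.1 CPM and lay between −0.50 and 0.24 over its alternatives. The 3 members higher at an unadjusted p under 0.05 became 2 with a pseudocount of 5 CPM and with the replicate block (62 and 68 of the 501, beside 67). They also became 2 with a minimum mean of 10 CPM (52 of 238). The count was 1 with median-ratio scaling and without a trend (36 and 51 of the 501), and 0 with edgeR and DESeq2 (37 and 29 of the 501). It was 4 with median-ratio scaling without NC replicate 3 (51 of the 501), and 0 to 4 when 1 library was left out (21 to 150 of the 501). The cause was not tested.

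With the replicate block, 0 of 5 members passed the adjusted p, and miR-199b-5p was at 1.57 with an adjusted p of 0.208. Over all tested miRNAs, the 1 call became 11 without the filter, 2 with median-ratio scaling or without miR-148a-3p in the total, 0 without a trend, 32 with DESeq2, 5 with the replicate block, 36 with median-ratio scaling without NC replicate 3, and 0 to 114 when 1 library was left out. Leaving out single libraries placed the difference of the miR-214 arm ratios between −1.75 and −0.93.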
